A study of Mus musculus with 8 samples.

Results

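The tumour suppressor p53, encoded by Trp53 in the mouse, and 9 genes that it is known to switch on were followed across 3 mouse lines grown from epithelioid hemangioendothelioma (EHE), which is a vascular tumour of endothelial character. The 10 genes (Trp53, Mdm2, Cdkn1a, Bax, Bbc3, Ccng1, Phlda3, Sesn2, Zmat3 and Eda2r) were taken by name. All 10 were among the 55401 gene identifiers of the count table and among the 18882 genes that passed the filter on low counts. Polyadenylated RNA was read from 2 libraries of EHE26, 3 of EHE17 and 3 of EHE6. The labels give the line and no genotype, treatment, passage or age, and they do not say whether replicates were separate cultures, so a p-value speaks only for how far these libraries scatter. Each line was set against each of the others.

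p53 is a transcription factor that cells keep scarce through Mdm2, a ubiquitin ligase that marks it for destruction. DNA damage and other stresses free p53 from Mdm2, and p53 then switches on genes that halt the cell cycle, repair DNA, limit oxidative stress or trigger apoptosis, and Mdm2 itself, which closes a feedback loop. Because p53 is controlled mostly as a protein, the RNA of its targets is a common readout of its activity, although each target also answers to other factors. In tumours Trp53 is often mutated, and gene counts such as these do not show whether a transcript carries a mutation.

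The target genes carry p53 binding sites near their starts or in their first introns. RefSeq promoter windows (250 bases before to 50 bases after a start, build GRCm38.p6) were at hand for 9 of the 10 genes, and each was searched for the p53 consensus element, 20 bases made of a pair of 10-base half-sites with no spacer. The element reads the same on both strands. The closest matches, 19 of 20 bases, were in Cdkn1a and Ccng1. They are shown because they are the letters nearest to the consensus in the windows of these 9 genes. In each line the capitals mark the match.
Cdkn1a: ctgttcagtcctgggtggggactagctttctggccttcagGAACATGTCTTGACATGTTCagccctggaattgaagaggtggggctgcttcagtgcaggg
Ccng1: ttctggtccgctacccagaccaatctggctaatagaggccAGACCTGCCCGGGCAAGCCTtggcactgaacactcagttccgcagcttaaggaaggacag
The Cdkn1a stretch is chr17:29090888-29090987 on the plus strand, and its match lies at -51 to -32 relative to the upstream start of the gene. The window at the downstream start of Cdkn1a held a best match of 15 bases. The Ccng1 stretch is chr11:40755422-40755521, read on the minus strand, and its match lies at -195 to -176 relative to the start. A match of 19 or more was found in 29 of 32851 such windows (0.0883%). The windows of Trp53 and Bax and the most upstream window of Bbc3 held best matches of 17 bases. A match of at least 17 was found in 6.29% of all windows. The other Bbc3 windows held best matches of 15 and 14. The best matches in Mdm2, Phlda3, Sesn2 and Eda2r were of 15, 15, 15 and 14 bases, and 76.6% of all windows held a match of at least 15. A match is a likeness of letters and says nothing about binding in these lines.

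All 10 genes were read in each of the 8 libraries, and none of them was called as different between any pair of lines. The fewest reads of any of them in a library were 766, for Bbc3 in EHE17 replicate 3. Levels are given as CPM, read counts relative to library size after scaling with TMM factors. Calls needed a change of 1 or more on the log2 scale, in either direction, together with a Benjamini-Hochberg adjusted p below 0.05 from edgeR's quasi-likelihood test. In EHE26 against EHE6, 0 of the 10 were called, where 1.26% of all tested genes were. In EHE17 against EHE6 the count was also 0, against 0.143% of tested genes, and in EHE26 against EHE17 it was 0, against 1.08%. At an unadjusted p under 0.05 the counts were 1, 0 and 3 in the same order, and the shares of all tested genes were 15.9%, 6.90% and 16.6%. DESeq2 called 0 of the 10 in each comparison. The median log2 difference of the 10 was -0.12 for EHE26 against EHE6, -0.16 for EHE17 against EHE6 and 0.22 for EHE26 against EHE17, beside -0.11, -0.03 and -0.11 over all tested genes. The comparisons share libraries, so they are not independent of each other.

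**Figure D1:**
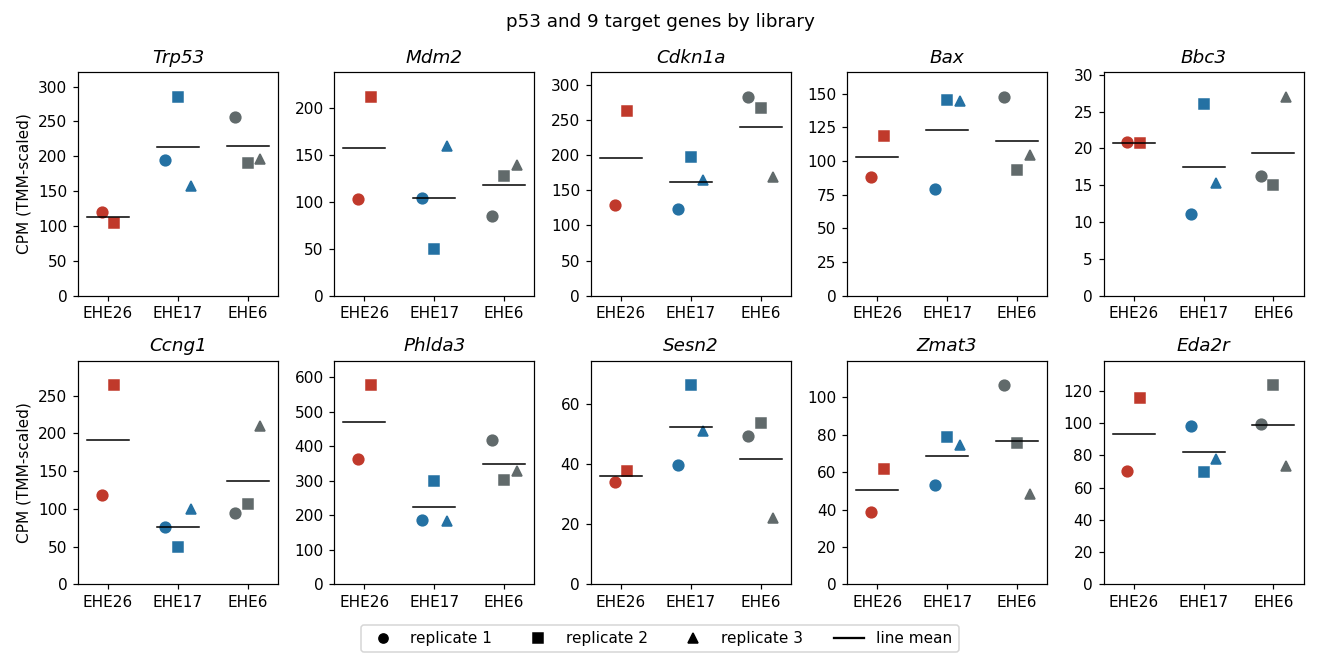
Level of each gene in CPM (vertical axis, from 0, scale differs by panel) in the libraries of EHE26, EHE17 and EHE6, with 1 point per library shaped by replicate number and a bar at the line mean. Trp53 in both EHE26 libraries lies under the other 6 libraries, while for most of the other genes the points of the lines overlap.

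Some facts of the libraries bear on the values that follow. Total counts were 44620965 to 96237665 per library. Principal component 1 of log2 CPM (56.2% of the variance) split the libraries by its sign into 2 sets that cross the lines, with EHE6 replicates 1 and 2 and EHE17 replicates 1 and 2 on the negative side and the other 4 libraries on the positive side. Both EHE26 libraries are on the positive side, so a difference between EHE26 and another line cannot be told apart from the set unless the set is a term in the fit or the comparison stays within the positive set. The summed level of 10 endothelial markers was 3943 to 5083 CPM in EHE26, 6160 to 9998 CPM in EHE17 and 2697 to 12569 CPM in EHE6. The lowest values of EHE17 and of EHE6 were those of replicate 3. Each library of the positive set was thus under each of the negative set, at most 6160 CPM against at least 9338 CPM. The 5 fibroblast markers summed to 186 to 427 CPM in EHE26, 35.8 to 251 CPM in EHE17 and 36.5 to 262 CPM in EHE6. The 5 leukocyte markers summed to at most 30.3 CPM in any library, with the T cell gene Cd3e at 0 in 6 of 8 libraries. The 5 smooth muscle and pericyte markers summed to 128 to 137 CPM in EHE26, 7.86 to 62.0 CPM in EHE17 and 221 to 671 CPM in EHE6, and the 5 epithelial markers to 2.65 to 28.4 CPM, 0.843 to 29.6 CPM and 22.3 to 89.6 CPM in the same lines. The part of these cell type markers in the values below was not tested. In bulk RNA, fewer cells that express a gene and less RNA per cell cannot be told apart.

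Trp53 (ENSMUSG00000059552, chromosome 11, 69580359 to 69591873, plus strand) had its lowest levels in EHE26. It was at 121 and 104 CPM in EHE26 replicates 1 and 2, at 195, 286 and 158 CPM in EHE17 replicates 1, 2 and 3, and at 257, 191 and 196 CPM in EHE6 replicates 1, 2 and 3. EHE26 did not overlap with either of the other lines, and EHE17 and EHE6 overlapped. Separation of this kind is common in these data, at 31.3% of tested genes between EHE26 and EHE6 and 39.0% between EHE26 and EHE17. The log2 fold change of EHE26 against EHE6 was -0.94 ± 0.32 (SE), with a 95% interval of -1.67 to -0.20 and an adjusted p of 0.247 by edgeR's quasi-likelihood test. Against EHE17 it was -0.92 ± 0.32, with an interval of -1.65 to -0.19 and an adjusted p of 0.226. EHE17 and EHE6 differed by -0.01 ± 0.28, with an interval of -0.65 to 0.62.

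The Trp53 difference stayed negative in each alternative fit of both comparisons with EHE26, at log2 -1.07 to -0.67 against EHE6 and -1.10 to -0.49 against EHE17, and the adjusted p was 0.0626 or more throughout. With the library set as a term it was -0.67 against EHE6 (adjusted p = 0.420) and -0.64 against EHE17 (adjusted p = 0.475). Within the positive set, EHE26 stood at 121 and 104 CPM, with 158 CPM in EHE17 replicate 3 and 196 CPM in EHE6 replicate 3. The processed pseudogene Trp53-ps on chromosome 17 was given 105 to 588 reads per library, against 4736 to 25797 for Trp53, so a small share of reads may be divided between the copies.

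Mdm2 (ENSMUSG00000020184, chromosome 10, 117688875 to 117710758, minus strand), the feedback inhibitor of p53, had the widest spread within lines of the 10 genes. It was at 103 and 212 CPM in EHE26 replicates 1 and 2, at 104, 49.6 and 160 CPM in EHE17 replicates 1, 2 and 3, and at 85.2, 128 and 140 CPM in EHE6 replicates 1, 2 and 3. Each line overlapped with both others. The log2 fold changes were 0.42 ± 0.51 for EHE26 against EHE6, -0.17 ± 0.46 for EHE17 against EHE6 and 0.59 ± 0.51 for EHE26 against EHE17. The intervals were -0.75 to 1.60, -1.23 to 0.89 and -0.58 to 1.77.

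The library with the highest Trp53, EHE17 replicate 2, had the lowest Mdm2, and the library with the lowest Trp53, EHE26 replicate 2, had the highest Mdm2. Per kilobase of exon, the ratio of Mdm2 to Trp53 was 0.680 and 1.63 in EHE26 replicates 1 and 2. It was 0.426, 0.138 and 0.805 in EHE17 replicates 1, 2 and 3, and 0.264, 0.534 and 0.568 in EHE6 replicates 1, 2 and 3. Both EHE26 ratios were above all 3 of EHE6, while EHE17 overlapped with EHE26. The ratios also split by library set. The lowest of the positive set, 0.568 in EHE6 replicate 3, was above the highest of the negative set, 0.534 in EHE6 replicate 2. For EHE26, line and set cannot be told apart here. This ratio was formed after the values were seen and is given with no test.

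Cdkn1a (ENSMUSG00000023067, chromosome 17, 29090976 to 29100727, plus strand) encodes p21, the inhibitor of cyclin-dependent kinases through which p53 halts the cell cycle. It was at 129 and 262 CPM in EHE26 replicates 1 and 2, at 124, 198 and 164 CPM in EHE17 replicates 1, 2 and 3, and at 283, 267 and 168 CPM in EHE6 replicates 1, 2 and 3. The lines overlapped in all 3 comparisons. The log2 fold changes were -0.29 ± 0.39 for EHE26 against EHE6 (interval -1.19 to 0.61), -0.56 ± 0.35 for EHE17 against EHE6 (-1.37 to 0.24) and 0.27 ± 0.39 for EHE26 against EHE17 (-0.62 to 1.16). The gene AC167363.2 on the opposite strand overlaps Cdkn1a and had 25 to 87 reads per library, against at least 7031 for Cdkn1a, and without a stated strand setting their reads cannot be told apart.

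Ccng1 (ENSMUSG00000020326, chromosome 11, 40748552 to 40755311, minus strand) encodes cyclin G1, a p53 target that takes part in the control of Mdm2. It was at 118 and 263 CPM in EHE26 replicates 1 and 2, at 76.0, 49.8 and 100.3 CPM in EHE17 replicates 1, 2 and 3, and at 94.0, 107 and 210.2 CPM in EHE6 replicates 1, 2 and 3. All EHE17 libraries were under both EHE26 libraries, and EHE26 and EHE6 overlapped. The largest of the fold changes among the 10 genes was that of Ccng1 in EHE26 against EHE17, at log2 1.34 ± 0.49, with an interval of 0.21 to 2.47 (adjusted p = 0.249 by edgeR). With the library set as a term it was 0.79 (adjusted p = 0.541), and within the positive set, where EHE17 is replicate 3 alone, it was 0.93, given with no test. Between EHE17 and EHE6 the log2 fold change was -0.86 ± 0.45 (-1.89 to 0.17), and between EHE26 and EHE6 it was 0.48 ± 0.49 (-0.66 to 1.61).

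Ccng1 and Mdm2 were both lowest in EHE17 replicate 2 and both highest in EHE26 replicate 2. EHE6 replicate 3 came next for Ccng1, at 210.2 CPM. Cdkn1a did not share this order, as its highest level was in EHE6 replicate 1, and Sesn2 had its lowest level in EHE6 replicate 3. The order of the libraries thus differed from target to target.

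**Figure D2:**
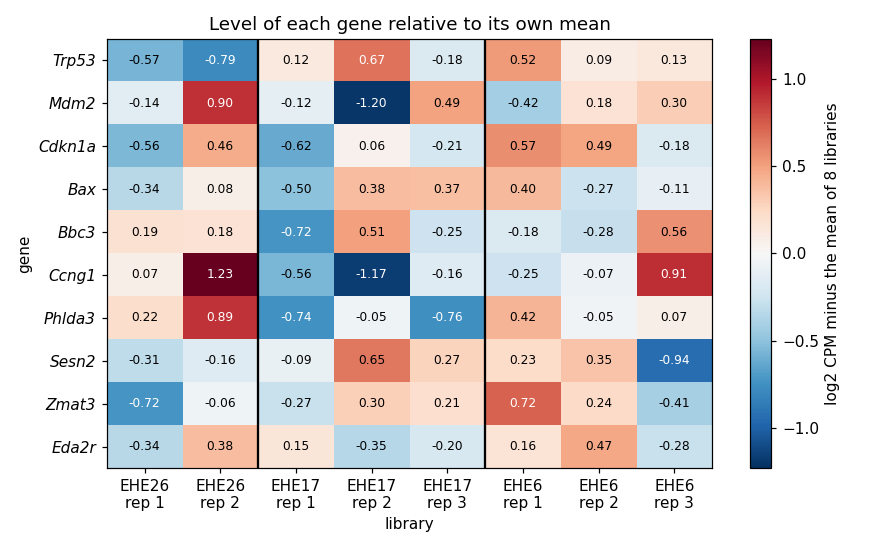
Level of each gene (rows) in each library (columns, EHE26, EHE17 and EHE6 from left to right) as log2 CPM minus the mean of that gene over 8 libraries, with red above and blue below the mean. EHE26 replicate 2 is high for Ccng1, Mdm2 and Phlda3 and low for Trp53, and EHE17 replicate 2 shows the reverse for Ccng1, Mdm2 and Trp53.

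Bax and Bbc3 belong to the apoptotic arm, and their lines overlapped in all 3 comparisons. Bax (ENSMUSG00000003873, chromosome 7, 45461697 to 45466898, minus strand), which permeabilises the outer mitochondrial membrane, was at 88.4 and 118 CPM in EHE26 replicates 1 and 2. It was at 79.0, 146 and 145 CPM in EHE17 replicates 1, 2 and 3 and at 148, 93.0 and 104 CPM in EHE6 replicates 1, 2 and 3. The lines overlapped, and the log2 fold changes were -0.15 ± 0.35 for EHE26 against EHE6, 0.10 ± 0.31 for EHE17 against EHE6 and -0.25 ± 0.35 for EHE26 against EHE17. The 3 intervals together ran from -1.07 to 0.82. Bbc3 (ENSMUSG00000002083, chromosome 7, 16308393 to 16318205, plus strand) encodes PUMA, a BH3-only protein that frees BAX from its inhibitors. It was at 20.9 and 20.7 CPM in EHE26 replicates 1 and 2, at 11.1, 26.0 and 15.4 CPM in EHE17 replicates 1, 2 and 3, and at 16.2, 15.0 and 27.0 CPM in EHE6 replicates 1, 2 and 3. Both EHE26 values of Bbc3 lay inside the range of each of the other lines. Its log2 fold changes were 0.10 ± 0.43 for EHE26 against EHE6, -0.15 ± 0.38 for EHE17 against EHE6 and 0.25 ± 0.43 for EHE26 against EHE17.

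Phlda3 (ENSMUSG00000041801, chromosome 1, 135766119 to 135769136, plus strand), which competes with AKT for membrane lipids and so restrains survival signalling, had its lowest levels in EHE17, and no difference passed the test. It was at 363 and 576 CPM in EHE26 replicates 1 and 2, at 186, 300.3 and 184 CPM in EHE17 replicates 1, 2 and 3, and at 417, 302 and 327 CPM in EHE6 replicates 1, 2 and 3. EHE17 lay under EHE26 with a gap, and under EHE6 by a narrow margin, 300.3 CPM against 302 CPM at the nearest libraries. Between EHE17 and EHE6, 12.2% of tested genes were separated. The log2 fold change was 1.07 ± 0.33 for EHE26 against EHE17, with an interval of 0.30 to 1.84 (adjusted p = 0.189 by edgeR and 0.0541 by DESeq2). It was -0.64 ± 0.30 for EHE17 against EHE6 (-1.34 to 0.06, adjusted p = 0.762) and 0.43 ± 0.33 for EHE26 against EHE6 (-0.34 to 1.20). With the library set as a term the EHE26 against EHE17 value was 1.26 (adjusted p = 0.189).

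Eda2r (ENSMUSG00000034457, chromosome X, 97333840 to 97377216, minus strand) encodes a receptor of the tumour necrosis factor family for the A2 form of ectodysplasin. It was at 70.3 and 116 CPM in EHE26 replicates 1 and 2, at 98.4, 69.7 and 77.6 CPM in EHE17 replicates 1, 2 and 3, and at 99.6, 123 and 73.4 CPM in EHE6 replicates 1, 2 and 3. The lines overlapped throughout, and the log2 fold changes were -0.09 ± 0.33 for EHE26 against EHE6, -0.27 ± 0.29 for EHE17 against EHE6 and 0.18 ± 0.33 for EHE26 against EHE17. The ligand gene Eda was read in the negative set at 3.47 and 3.30 CPM in EHE17 replicates 1 and 2 and at 2.84 and 2.68 CPM in EHE6 replicates 1 and 2. In the positive set it had 25 and 2 reads in EHE26 replicates 1 and 2 and no read in EHE17 replicate 3 and EHE6 replicate 3. The receptor gene was thus read in all 8 libraries and Eda mainly in 4 of them. Counts per gene do not show whether the reads of Eda came from the A2 form.

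Sesn2 and Zmat3 stand for the metabolic and RNA-binding arms. Sesn2 (ENSMUSG00000028893, chromosome 4, 132492032 to 132510501, minus strand) encodes sestrin 2, which senses leucine and restrains mTORC1. It was at 34.0 and 37.8 CPM in EHE26 replicates 1 and 2, at 39.6, 66.1 and 50.9 CPM in EHE17 replicates 1, 2 and 3, and at 49.4, 53.7 and 21.9 CPM in EHE6 replicates 1, 2 and 3. EHE26 lay under EHE17 by a narrow margin, with a log2 fold change of -0.54 ± 0.41 and an interval of -1.49 to 0.41. It was -0.22 ± 0.41 for EHE26 against EHE6 and 0.32 ± 0.36 for EHE17 against EHE6, and here 1 library weighed heavily. Within the positive set, where EHE17 and EHE6 are each replicate 3 alone, the log2 fold change was 0.71 for EHE26 against EHE6 and 1.21 for EHE17 against EHE6, given with no test.

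Zmat3 (ENSMUSG00000027663, chromosome 3, 32334792 to 32366014, minus strand) encodes a zinc finger protein that binds RNA and takes part in splicing. It was at 38.9 and 61.9 CPM in EHE26 replicates 1 and 2, at 53.2, 79.0 and 74.4 CPM in EHE17 replicates 1, 2 and 3, and at 106, 75.8 and 48.4 CPM in EHE6 replicates 1, 2 and 3. The lines overlapped. The log2 fold changes were -0.61 ± 0.39 for EHE26 against EHE6 (-1.51 to 0.29), -0.16 ± 0.34 for EHE17 against EHE6 (-0.95 to 0.63) and -0.45 ± 0.39 for EHE26 against EHE17 (-1.34 to 0.44).

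**Figure D3:**
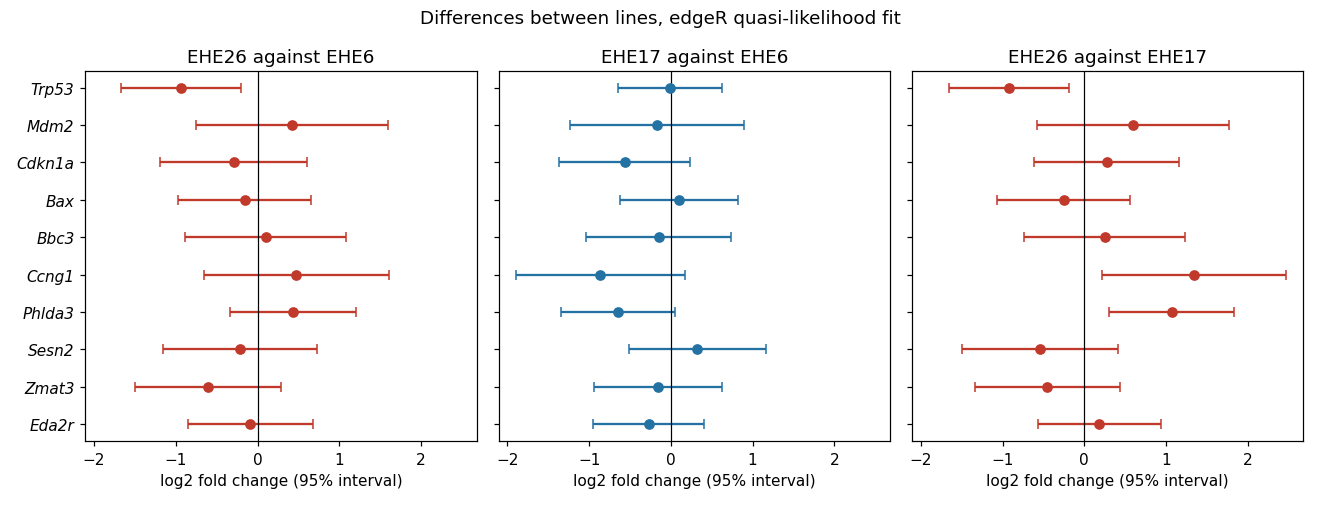
Log2 fold change of each gene (horizontal axis) with its 95% interval from the edgeR fit, for EHE26 against EHE6, EHE17 against EHE6 and EHE26 against EHE17. The intervals that leave out 0 are those of Trp53 in both comparisons with EHE26 and of Ccng1 and Phlda3 in EHE26 against EHE17, and no gene passed after adjustment over 18882 genes.

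The precision behind these values differed from gene to gene. The SD of log2 CPM within lines, pooled over the 3 lines, was 0.32 for Trp53, 0.36 for Phlda3, 0.37 for Eda2r and 0.41 for Bax. It was 0.68 for Mdm2 and 0.63 for Ccng1. The median of the 10 genes was 0.46, and that of the 9565 tested genes with a mean of at least 10 CPM was 0.40. Mdm2 and Ccng1 lay at percentiles 80.5 and 77.6 of those genes and Trp53 at 34.6. Across the 30 intervals the bound farthest from 0 was 2.47, for Ccng1 in EHE26 against EHE17.

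Set against exon length, the 10 genes covered a wide range of levels. Phlda3 was the highest at a mean of 213 CPM per kilobase of exon over the 8 libraries, at percentile 99.0 of tested genes. Bax followed at 73.1, Cdkn1a at 56.1 and Trp53 at 46.6 CPM per kilobase. Ccng1 was at 36.2, Mdm2 at 24.2, Eda2r at 15.5 and Sesn2 at 12.7 CPM per kilobase. Bbc3 at 8.96 and Zmat3 at 5.88 CPM per kilobase were the lowest, at percentiles 71.1 and 63.0, so even these were above the middle of the tested genes. Exon length is the union of all annotated exons, and Zmat3 has the most of it among the 10, 11435 bases.

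The level of Trp53 over the 8 libraries was most like that of Cstf1, a cleavage stimulation factor for polyadenylation, Dhx37, a helicase of ribosome assembly, and Cog1, a subunit of a Golgi tethering complex. The measure was Pearson's correlation of log2 CPM among 9183 protein-coding genes of at least 10 CPM, and it was 0.98 for each of the 3. For Ccng1 the closest were Mob1b, a Hippo pathway adaptor, the glycosyltransferase gene Galnt7 and the integrin gene Itga6, at 0.99, 0.97 and 0.97. For Cdkn1a they were Tarbp2, Steap1 and Nsmce4a, at 0.90, 0.88 and 0.88. These are descriptions over 8 libraries that share lines and sets.

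The wider p53 network was described with 9 lists of 118 genes, of which 115 were tested. Of these, 2 genes were called, Tap1 and Psrc1, both listed as p53 targets of the repair and metabolism group. That is 2 genes in EHE26 against EHE6, 0 in EHE17 against EHE6 and 1 in EHE26 against EHE17. Of all tested genes, 1.26%, 0.143% and 1.08% were called in these comparisons. With so few calls, no difference between the lists and all tested genes can be read from them. Tap1 encodes a subunit of the transporter that supplies peptides for MHC class I and is also a classic interferon-inducible gene. It was at 237 and 230.5 CPM in EHE26 replicates 1 and 2, at 19.8, 33.7 and 38.6 CPM in EHE17 replicates 1, 2 and 3, and at 11.8, 11.0 and 11.1 CPM in EHE6 replicates 1, 2 and 3. The lines did not overlap. Tap1 rose in EHE26 against EHE6 by log2 4.37 ± 0.32 (adjusted p = 0.00159) and against EHE17 by 2.93 ± 0.30 (adjusted p = 0.00875). The call against EHE17 was lost without EHE17 replicate 2 (adjusted p = 0.0549) and without EHE26 replicate 1 or 2 (adjusted p = 0.0533 and 0.0625).

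Psrc1, a microtubule-associated gene of the mitotic spindle, fell in EHE26 against EHE6. It was at 24.1 and 26.1 CPM in EHE26 replicates 1 and 2, at 33.0, 39.4 and 35.1 CPM in EHE17 replicates 1, 2 and 3, and at 63.2, 74.4 and 59.5 CPM in EHE6 replicates 1, 2 and 3. The lines were fully separated, with EHE17 in between. The log2 fold change of EHE26 against EHE6 was -1.39 ± 0.24 (adjusted p = 0.0375). The call held in 7 of 17 alternative fits, and with the library set as a term the value was -1.30 (adjusted p = 0.0509). The 7 include the main fit with no minimum fold change, where the call could not be lost. Without EHE6 replicates 1 and 2 the adjusted p was 0.144 and 0.155, without EHE17 replicates 1, 2 and 3 it was 0.0802, 0.0531 and 0.0514, and without EHE26 replicates 1 and 2 it was 0.365 and 0.299.

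Of the 14 listed targets that act in arrest and feedback, 0 were called in any comparison by edgeR, and 2 had an unadjusted p under 0.05 in each, beside 15.9%, 6.90% and 16.6% of all tested genes in EHE26 against EHE6, EHE17 against EHE6 and EHE26 against EHE17. Btg2, an antiproliferative gene, was at 26.9 and 13.7 CPM in EHE26, at 94.2, 206 and 50.4 CPM in EHE17 replicates 1, 2 and 3, and at 153, 136 and 17.5 CPM in EHE6 replicates 1, 2 and 3. Its low values are those of the positive set in each line. Its log2 fold change was -2.33 ± 0.96 for EHE26 against EHE6 (adjusted p = 0.308), and within the positive set it was 0.22. Plk3, a stress-responsive kinase, was at 8.94 and 11.3 CPM in EHE26, at 14.0 to 18.3 CPM in EHE17 and at 19.6 to 27.2 CPM in EHE6, with -1.19 ± 0.30 for EHE26 against EHE6 (adjusted p = 0.140). For EHE26 against EHE6, Plk3 was called by DESeq2 (adjusted p = 0.00217) and without EHE6 replicate 3 (adjusted p = 0.0408), and Btg2 with the replicate block (adjusted p = 0.0410) and without EHE6 replicate 3 (adjusted p = 0.0421). For EHE26 against EHE17, Btg2 was at -2.53 ± 0.97 (adjusted p = 0.263). There it was called with the replicate block (-3.17, adjusted p = 0.0271) and by DESeq2 (adjusted p = 0.0430). With the library set as a term Btg2 was at -0.36 against EHE6 (adjusted p = 0.883) and -0.90 against EHE17 (adjusted p = 0.585). The block matches EHE26 to replicates 1 and 2 of the other lines, all of the negative set.

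Of the 12 listed apoptotic targets, 0 were called in any comparison by edgeR, and 3, 0 and 3 had an unadjusted p under 0.05 in EHE26 against EHE6, EHE17 against EHE6 and EHE26 against EHE17, where the shares of all tested genes were 15.9%, 6.90% and 16.6%. Fas, a death receptor that interferon also induces, was at 7.43 and 4.50 CPM in EHE26 replicates 1 and 2, at 0.520 to 1.06 CPM in EHE17 and at 0.735 to 0.833 CPM in EHE6. EHE26 stood above all other libraries, with log2 2.91 ± 0.56 against EHE6 (adjusted p = 0.0579) and 3.09 ± 0.56 against EHE17 (adjusted p = 0.0508). Over the alternatives the adjusted p was 3.24e-06 to 0.441 against EHE6 and 4.00e-07 to 0.326 against EHE17, with calls in 4 and 5 of 17. Bid, which links death receptors to mitochondria, lay the other way, at 10.6 and 14.3 CPM in EHE26, at 34.7 to 48.3 CPM in EHE17 and at 22.2 to 49.3 CPM in EHE6. Its log2 fold change was -1.62 ± 0.39 against EHE6 (adjusted p = 0.123) and -1.74 ± 0.40 against EHE17 (adjusted p = 0.0958). Bid was called in 2 of 17 alternatives against EHE6 (adjusted p of 0.00366 to 0.606) and in 5 of 17 against EHE17 (0.00154 to 0.451).

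Of the 14 listed targets in repair and metabolism, 1 was called higher and 1 lower in EHE26 against EHE6, 0 in EHE17 against EHE6 and 1 higher in EHE26 against EHE17, which are the calls of Tap1 and Psrc1. At an unadjusted p under 0.05 the counts were 2, 4 and 3 of 14, beside 15.9%, 6.90% and 16.6% of all tested genes. Ak1, an adenylate kinase, was at 57.4 and 145 CPM in EHE26, at 17.9 to 29.3 CPM in EHE17 and at 65.6 to 122 CPM in EHE6. EHE17 lay under both other lines, with log2 2.12 ± 0.45 for EHE26 against EHE17 (adjusted p = 0.0814) and -1.91 ± 0.42 for EHE17 against EHE6 (adjusted p = 0.217). Ak1 was called in 5 of 17 alternatives for EHE26 against EHE17 (adjusted p of 0.00111 to 0.534) and in 2 of 18 for EHE17 against EHE6 (0.00249 to 0.615).

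**Figure D4:**
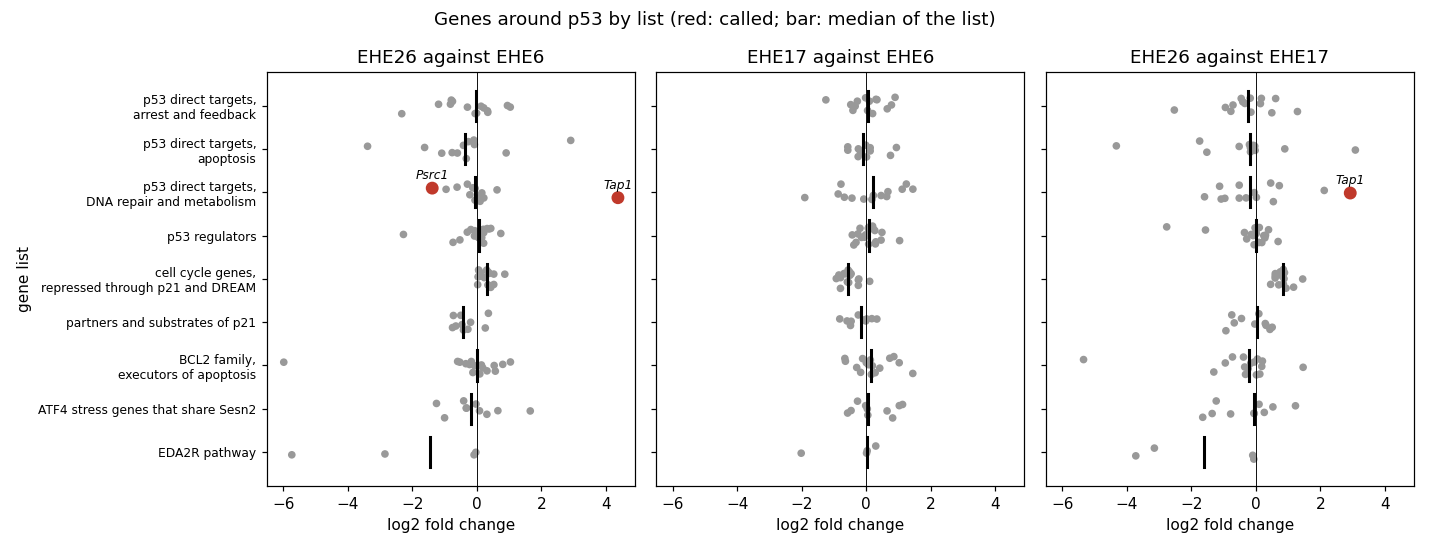
Log2 fold change (horizontal axis) of each tested gene of 9 lists around p53 (rows), with called genes in red and named and a bar at the list median, in EHE26 against EHE6, EHE17 against EHE6 and EHE26 against EHE17. Tap1 and Psrc1 are the called genes, and the cell cycle list lies to the right of 0 in EHE26 against EHE17 with a median of 0.84. In that comparison 0 of its 16 genes had an unadjusted p under 0.05 by edgeR. Its summed level in EHE17 replicate 3, 2035 CPM, was above both EHE26 libraries, at 1893 and 1795 CPM.

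Of the 19 tested regulators of p53, 0 were called in any comparison by edgeR, and 1, 0 and 1 had an unadjusted p under 0.05, beside 15.9%, 6.90% and 16.6% of all tested genes. Mdm4, the partner of Mdm2, was at 51.3 and 71.5 CPM in EHE26, at 18.2 to 77.8 CPM in EHE17 and at 24.2 to 82.7 CPM in EHE6, so the lines overlapped. Cop1, another ubiquitin ligase for p53, was at 103 and 113 CPM in EHE26, at 50.3 to 75.7 CPM in EHE17 and at 72.7 to 93.4 CPM in EHE6 (0.69 ± 0.26 for EHE26 against EHE17, adjusted p = 0.260). Cdkn2a, whose ARF product blocks Mdm2, was at 1.75 and 2.17 CPM in EHE26 and at 4.07 to 8.64 CPM in EHE17. In EHE6 it was at 3.88 and 4.56 CPM in replicates 1 and 2, and replicate 3 had 1 read.

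Of the 16 cell cycle genes that p53 represses indirectly through p21 and the DREAM complex, 0 were called in any comparison by edgeR, and 0 had an unadjusted p under 0.05, beside 15.9%, 6.90% and 16.6% of all tested genes. Their summed level was 1893 and 1795 CPM in EHE26 replicates 1 and 2, 386, 731 and 2035 CPM in EHE17 replicates 1, 2 and 3, and 1031, 520 and 3155 CPM in EHE6 replicates 1, 2 and 3. The 4 libraries of the positive set thus held the highest sums. Replicate 3 exceeded replicates 1 and 2 by a median of log2 2.06 in EHE17 and 2.19 in EHE6, while all tested genes had medians of -0.11 and -0.13.

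For the 10 p53 genes the median difference between replicate 3 and replicates 1 and 2 was log2 0.03 in EHE17 and -0.17 in EHE6. Trp53 differed by -0.58 in EHE17 and by -0.18 in EHE6. In EHE6, replicate 3 at 196 CPM lay under replicate 1 at 257 CPM but above replicate 2 at 191 CPM. Cdkn1a differed by 0.07 in EHE17 and by -0.71 in EHE6, Sesn2 by -0.01 and -1.23, and Zmat3 by 0.20 and -0.89. Ccng1 was higher in replicate 3 of both lines, by 0.71 in EHE17 and 1.07 in EHE6, and so was Mdm2, by 1.15 and 0.42. With 1 library on one side, these are values with no test.

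Of the other lists, none held a called gene by edgeR: 0 of 10 partners and substrates of p21, 0 of 16 genes of the BCL2 family and the executors of apoptosis, 0 of 10 ATF4 stress genes and 0 of 4 genes of the EDA2R pathway. At an unadjusted p under 0.05 they held 0, 2, 1 and 1 genes in EHE26 against EHE6, 0, 2, 1 and 0 in EHE17 against EHE6, and 1, 1, 3 and 1 in EHE26 against EHE17. The shares of all tested genes were 15.9%, 6.90% and 16.6% in these comparisons. The 4 tested genes of the EDA2R list were Eda, Edaradd, Traf3 and Traf6. The gene counted there was Edaradd, the adaptor of the related receptor EDAR, so its count does not speak for EDA2R itself.

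Part of the spread within lines went with transcript length. Tested genes with a mean of at least 10 CPM were grouped by exon length. In EHE17 replicate 2 those under 1 kb stood 0.40 log2 units above their line mean at the median. Those over 8 kb stood 0.14 below it. In EHE17 replicate 1 the same groups stood 0.40 below and 0.16 above. EHE6 replicates 1 and 2 were at 0.26 and -0.35 for the genes under 1 kb, and the other 4 libraries were within 0.09 of their line means. Trp53 has 4045 bases of exon, Bax 1576 and Mdm2 5083. With an offset for this trend, 0 of the 10 genes were called in any comparison.

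**Figure D5:**
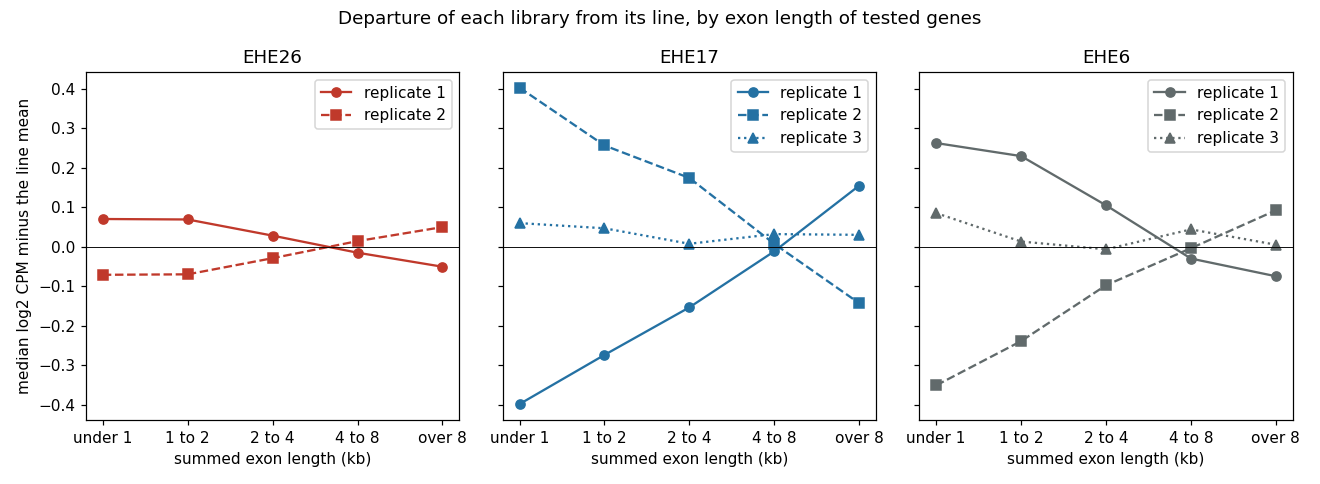
Median log2 CPM minus the line mean (vertical axis) of tested genes grouped by summed exon length (horizontal axis, in kb). The genes are those with a mean of at least 10 CPM, with 1 line per library in panels for EHE26, EHE17 and EHE6. Replicates 1 and 2 of EHE17, and of EHE6, tilt in opposite directions, by up to 0.40 for genes under 1 kb.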

How the data were processed

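The libraries hold polyA-selected RNA (RNeasy Mini extraction, NEBNext Ultra II kit, per the labels). Reads were aligned with HISAT2 to mm10, per the submitters' processing notes. The counting tool, annotation and strand setting are not given in the sources used here. The deposited values are raw read counts per Ensembl gene, and symbols and positions came from GENCODE M21 (GRCm38), which held 55141 of the 55401 identifiers. Total counts of 44620965 to 96237665 set the depth.

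Genes with low counts were removed with filterByExpr, and counts were scaled by TMM. A quasi-likelihood model with 1 coefficient per line was fitted to the 8 libraries together in edgeR 4.0.16 (R 4.3.3), and Benjamini-Hochberg adjustment ran over 18882 genes. The scripts were tested on simulated data. The SE was derived from the F statistic, intervals are 95%, and log2 CPM used a prior count of 2. Alternatives were DESeq2 1.42.0, its size factors, no filter, no minimum fold change, a replicate block, the library set as a term, subsets of libraries, each library left out and a length offset.

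The 10 genes and the lists were picked with earlier results of these data known. Named genes are all 10, up to 4 called genes of a list or else up to 3 with the smallest p, of which some are printed, and the 3 genes most like Trp53, Cdkn1a and Ccng1. Mdm4 and Cdkn2a were added for their roles after their values were seen. Departures of same-numbered EHE17 and EHE6 libraries from their line means correlated across genes at 0.13, 0.18 and 0.57 for replicates 1, 2 and 3. Replicate 3 is the only library of the positive set in both lines, so pairing cannot be told apart from the set here. The labels name no pairs. The printed values come from the model without a pair term, and the replicate block is an alternative. The pairs with EHE26 gave -0.11 to 0.18. Some listed genes are not reported here.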

Additional observations from a re-analysis of the deposited data

How the results depend on the processing

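None of the 10 p53 genes was called in the 17 alternative fits of either comparison with EHE26 or in the 18 of EHE17 against EHE6. Among these, the setting with no minimum fold change is the main fit again. It could add no gene whose adjusted p was above the threshold there. With the replicate block the Trp53 difference was -1.07 against EHE6 (adjusted p = 0.100) and -1.03 against EHE17 (adjusted p = 0.0933). Ccng1 was 1.60 in EHE26 against EHE17 with the block (adjusted p = 0.0554), and no call of the 10 changed. The block matches EHE26 to replicates 1 and 2 of the other lines, which are all in the negative set. Its EHE26 values thus cannot be told apart from the set. Signs of small log2 differences did turn, and the cause was not tested. For EHE26 against EHE6, the library set as a term gave Bbc3 -0.066, Ccng1 -0.016, Eda2r 0.17, Mdm2 -0.064 and Sesn2 0.26, and the length offset gave Bbc3 -0.069. The fits within a set and with the length offset were chosen after seeing the data. Within the positive set EHE26 against EHE6 gave Bbc3 -0.38, Btg2 0.22, Ccng1 -0.14, Cdkn1a 0.22, Eda2r 0.34, Sesn2 0.71 and Zmat3 0.057, EHE17 against EHE6 gave Eda2r 0.079, Mdm2 0.19 and Zmat3 0.62, and EHE26 against EHE17 gave Mdm2 -0.017. Within the negative set EHE17 against EHE6 gave Bax -0.089, Bbc3 0.26 and Trp53 0.11. With 1 library left out, EHE26 against EHE6 ranged over -0.37 to 0.065 for Bax, -0.056 to 0.42 for Bbc3, -0.21 to 0.94 for Ccng1, -0.87 to 0.13 for Cdkn1a, -0.47 to 0.23 for Eda2r, -0.18 to 0.85 for Mdm2 and -0.52 to 0.0078 for Sesn2. EHE17 against EHE6 ranged over -0.034 to 0.33 for Bax, -0.55 to 0.18 for Bbc3, -0.61 to 0.18 for Mdm2, -0.28 to 0.16 for Trp53 and -0.39 to 0.15 for Zmat3, and EHE26 against EHE17 over -0.32 to 0.69 for Cdkn1a, -0.21 to 0.50 for Eda2r and -0.018 to 1.04 for Mdm2. Where EHE26 is left with 1 library, it is assumed to vary like the other lines.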
